A study of Mus musculus with 172 samples.

Results

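Genes of 7 solute carrier families that carry amino acids and related compounds were followed through sleep deprivation in the mouse cerebral cortex and liver. Members were all gene symbols of the expression tables that belong to the families Slc1, Slc3, Slc6, Slc7, Slc36, Slc38 or Slc43. These genes were taken by name, although earlier results of these data were known at the time of choice. They numbered 48 of the 16308 genes listed, with 44 in cortex and 33 in liver, of which 29 were listed in both tissues. Of the 48, 12 belonged to Slc6, 12 to Slc7, 10 to Slc38, 6 to Slc1, 3 to Slc36, 3 to Slc43 and 2 to Slc3. The gene *Slc7a6os* is counted because it carries the name of the transporter gene it lies opposite to, and is not itself a transporter. Of the known family genes, 15 were in none of the tables, among them *Slc6a2*, *Slc6a3* and *Slc6a5*.

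RNA was sequenced from pools of male mice aged 11 to 14 wk that had been kept awake for the first 6 h of the light phase by gentle handling (SD) or left undisturbed (Ctr), all killed at the end of those 6 h. In each tissue and condition there were 39 pools from 37 strains, with 1 pool for each of 33 BXD/RwwJ recombinant inbred lines, 2 pools for each of the parental strains C57BL/6J (B6) and DBA/2J (D2), and 1 pool for each of the reciprocal F1 crosses. A pool held equal RNA of 3 mice, with fewer mice in 3 lines (BXD79, BXD85 and BXD101). With 1 pool per condition for each BXD line and F1 cross, the spread between pools mixes strain differences with those of mice and libraries. It does not measure the spread between single animals. Cortex libraries held 18995492 to 28998853 reads on listed genes and liver libraries 4681101 to 8269401, which makes the low members of the liver less precise. In liver the BXD70 pools stood apart, holding the lowest or highest change of 14 of the 33 members, and in cortex those of BXD90, BXD56 and BXD85 did so for 14, 10 and 7 of the 44. The SD liver library of BXD70 was also the one with the fewest reads, 4681101, and had 380 listed genes without a read. The part of single libraries in these changes was not tested. Leaving out BXD70 gave 17 members past the test in liver in place of 16, and leaving out the other 3 lines gave 32 in cortex in place of 31.

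Amino acids cross cell membranes almost only through such carriers. In the brain, sodium-driven transporters of Slc1 and Slc6 take glutamate, GABA, glycine, proline and taurine back from the space around the synapse, and Slc38 carriers pass glutamine between astrocytes and neurons. In the liver, Slc38 and Slc7 carriers bring in alanine, glutamine and arginine from the blood for urea and glucose production. Light chains of the Slc7 family reach the cell surface bound to a heavy chain of the Slc3 family, and members such as *Slc36a1*, *Slc38a7* and *Slc38a9* act at the lysosome, where amino acids are sensed for growth control by mTORC1.

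RefSeq promoters, which run from 250 bases before to 50 bases after a gene's start, were at hand for 34 of the 48 members. They are shown for the members in which a script found the 8 letters TGATGCAA on either strand, known as the core of the amino acid response element bound by ATF4, and for *Slc36a1*, the member that rose most in cortex. These letters were present for 3 of the 34 members, *Slc1a4*, *Slc7a7* and *Slc7a11*, and for 1.03% of all 27025 genes with a promoter in the table. The sequences are of build GRCm38.p6 and are written 5′ to 3′ along the strand of the gene, with the motif in capitals.
Slc1a4 (chr11:20332664-20332963, minus strand): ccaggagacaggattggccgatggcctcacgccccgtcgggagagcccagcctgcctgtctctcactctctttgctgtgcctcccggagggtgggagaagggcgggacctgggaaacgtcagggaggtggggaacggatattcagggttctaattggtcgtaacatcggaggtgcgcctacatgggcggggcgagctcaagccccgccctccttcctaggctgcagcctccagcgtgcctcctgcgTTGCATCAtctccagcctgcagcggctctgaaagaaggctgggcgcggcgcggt
Slc7a7 (chr14:54417895-54418194, minus strand): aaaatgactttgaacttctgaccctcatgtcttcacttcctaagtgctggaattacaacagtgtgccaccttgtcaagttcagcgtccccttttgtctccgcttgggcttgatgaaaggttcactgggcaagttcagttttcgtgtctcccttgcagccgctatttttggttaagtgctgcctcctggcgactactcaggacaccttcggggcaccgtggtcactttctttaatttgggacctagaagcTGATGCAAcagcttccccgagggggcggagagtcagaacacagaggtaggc
Slc7a11 (chr3:50443564-50443863, minus strand): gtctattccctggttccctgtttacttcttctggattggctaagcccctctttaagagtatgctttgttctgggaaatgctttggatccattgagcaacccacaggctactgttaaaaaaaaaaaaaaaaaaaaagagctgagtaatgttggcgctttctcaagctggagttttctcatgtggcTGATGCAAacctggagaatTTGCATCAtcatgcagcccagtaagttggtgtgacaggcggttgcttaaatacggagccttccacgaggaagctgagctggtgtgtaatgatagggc
Slc36a1 (chr11:55204090-55204389, plus strand): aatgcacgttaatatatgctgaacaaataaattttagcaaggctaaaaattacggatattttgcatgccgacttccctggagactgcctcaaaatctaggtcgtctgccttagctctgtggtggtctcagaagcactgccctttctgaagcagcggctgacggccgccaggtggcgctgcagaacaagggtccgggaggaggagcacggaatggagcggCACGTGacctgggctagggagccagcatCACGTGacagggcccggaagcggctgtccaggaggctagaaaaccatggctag
The promoter of *Slc7a11* held the letters in 2 copies that face each other, the first starting 66 and the second 47 bases before the gene's start. *Slc1a4* held 1 copy across its start, on the opposite strand. For *Slc36a1* the capitals mark the E-box CACGTG, which the promoters of 6 of the 34 members held (*Slc1a6*, *Slc36a1*, *Slc38a5*, *Slc38a7*, *Slc43a1* and *Slc7a14*) against 8.09% of all genes. The cAMP response element TGACGTCA was found for 1 member (*Slc38a6*, against 2.03% of all genes) and the D-box TTATGTAA for none of the 34 (against 1.11%). In the 4 promoters shown, no other of these motifs was present beside the one in capitals. A match is only a match of letters, and binding was not measured here.

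In control cortex the glutamate transporters of astrocytes were among the most abundant members. Levels were compared between genes as CPM, the read count scaled to library size, divided by the exonic length in kb. *Slc1a2*, the main glutamate transporter of astrocytes, stood at 336 ± 41.7 CPM per kb (SD, n = 39 pools). *Slc6a17*, a carrier of synaptic vesicles, stood at 80.2 ± 8.26, and *Slc1a3*, the second astrocyte glutamate transporter, at 75.1 ± 4.64. The levels of *Slc6a17* and *Slc1a3* differed by less than their spread, whereas *Slc1a2* stood apart from both. In the other families the leading members of cortex were *Slc38a2* at 39.5 ± 2.80, *Slc3a2* at 37.5 ± 2.67, *Slc7a8* at 27.1 ± 2.09, *Slc36a1* at 14.6 ± 2.84 and *Slc43a2* at 8.71 ± 0.648 CPM per kb.

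In control liver the order was another one and was led by Slc38. *Slc38a3*, the system N carrier of glutamine, stood at 163 ± 16.0 CPM per kb and *Slc38a4*, a system A carrier, at 150 ± 14.8 (SD, n = 39), levels that lay within 1 SD of each other. *Slc6a13*, a GABA and taurine carrier, came next at 99.4 ± 8.56. *Slc7a2*, the low-affinity arginine carrier of hepatocytes, *Slc6a12*, the betaine carrier, and *Slc3a1*, the heavy chain rBAT, followed at 72.8 ± 6.31, 72.2 ± 5.79 and 71.4 ± 12.5, and their order among themselves was within the spread. The leading members of the remaining families were *Slc1a2* at 30.6 ± 4.43, *Slc36a1* at 27.1 ± 3.91 and *Slc43a3* at 15.4 ± 1.72 CPM per kb. Levels were not tested between tissues, whose tables were normalized separately. Members listed in one tissue alone were 15 in cortex, among them *Slc6a15* and *Slc7a11*, and 4 in liver, *Slc3a1*, *Slc43a1*, *Slc43a3* and *Slc6a4*.

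**Figure D1:**
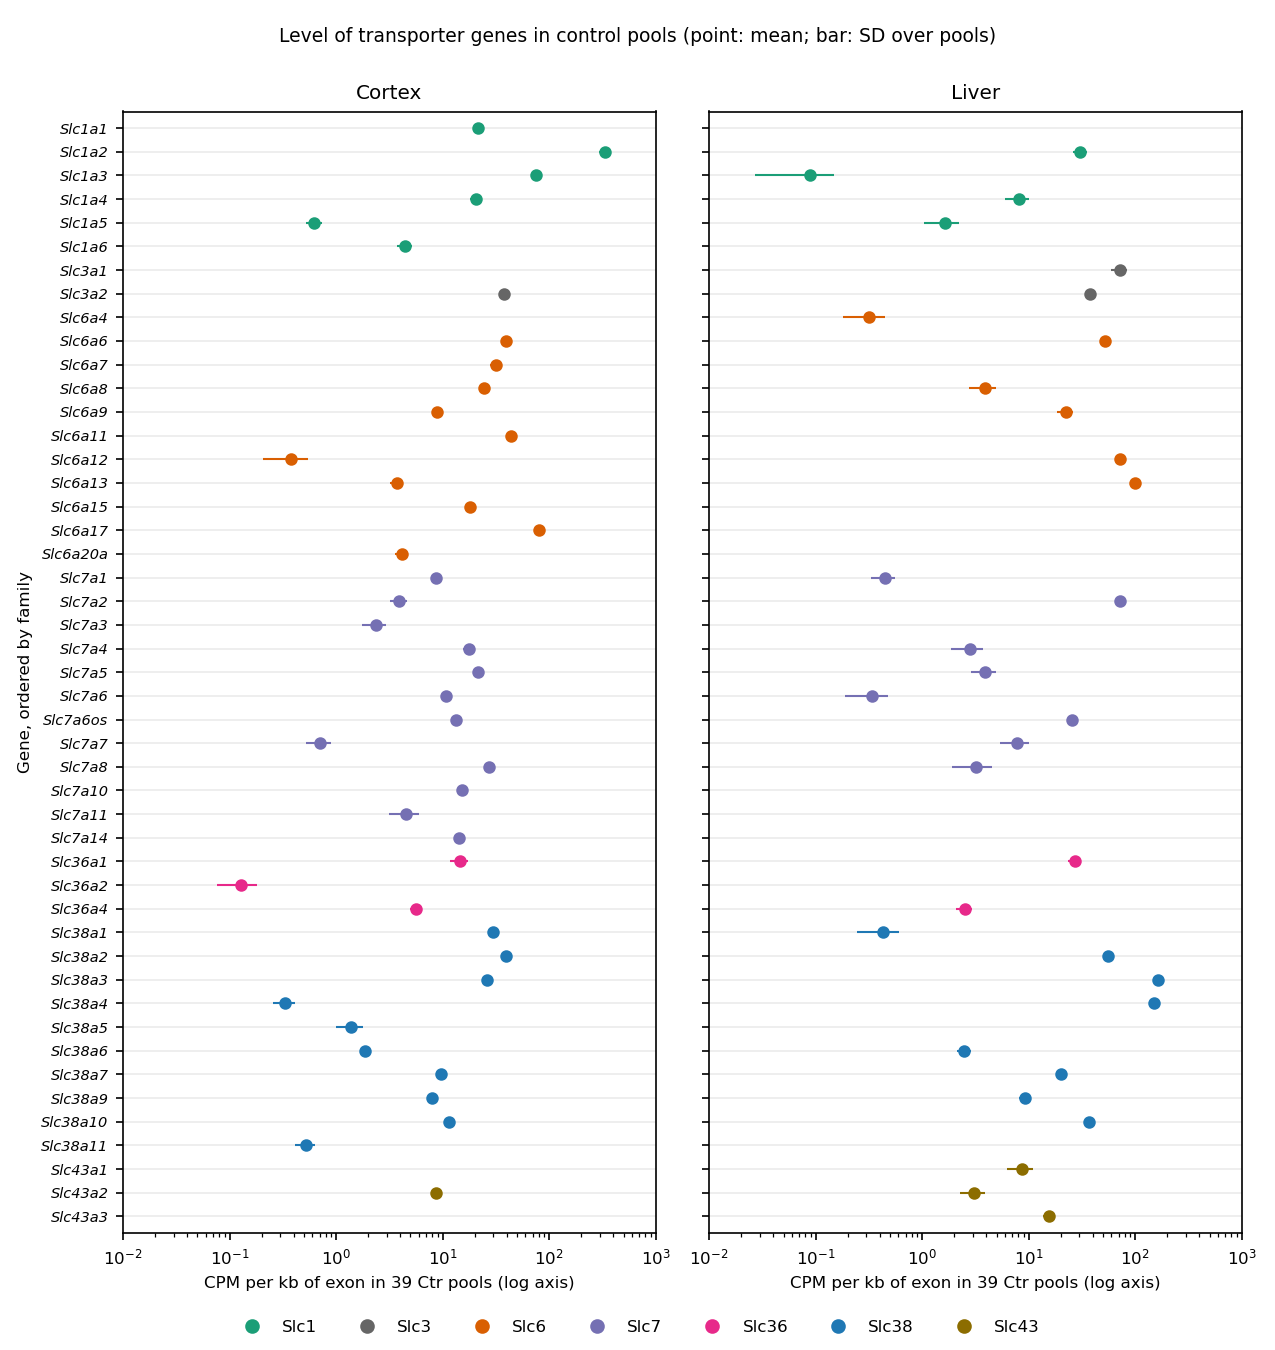
Level of members in the 39 Ctr pools of cortex (left) and liver (right), as CPM per kb of exon on a log axis, with the mean as a point, the SD over pools as a bar and the family as the color. *Slc1a2* leads in cortex at 336 and *Slc38a3* in liver at 163 CPM per kb, and rows without a point are members not listed in that tissue.

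Several members lie side by side in the genome (build mm9). *Slc38a1* and *Slc38a2* are 44.5 kb apart on chromosome 15, with *Slc38a4* a further 295 kb away. *Slc6a13* and *Slc6a12* on chromosome 6 are 5.34 kb apart. *Slc36a2* and *Slc36a1* on chromosome 11 are 19.3 kb apart, and *Slc43a1* and *Slc43a3* on chromosome 2 are 73.0 kb apart. Stretches of 100 bases, the read length, that are also found in the transcripts of another gene made up 14.2% of those of *Slc6a20a*, all shared with *Slc6a20b*. The value of *Slc6a20a* is therefore uncertain, whereas for every other member that share was at most 1.63%.

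The comparison of SD with Ctr pools asks which genes change their mRNA level when sleep is withheld. In cortex, 31 of the 44 members passed the test (limma, with p adjusted by the Benjamini-Hochberg method across the 14896 genes of the table and called below 0.05), of which 13 rose and 18 fell. That share of 70.5% stands beside 68.4% of all genes tested, with 33.0% of all genes higher and 35.4% lower, so the count of members is near the background. The median absolute log2 fold change was 0.11 for the members and 0.13 for all genes. Changes were modest, from -0.70 to 0.47 on the log2 scale, and 7 members moved by at least 0.3. In none of the 44 did the levels of the Ctr and SD pools stand clear of each other (1.40% of all genes did), but 7 members moved the same way in all 39 paired pools, beside 11.2% of all genes. With the line as a block, 36 members passed (17 higher, 19 lower) beside 76.3% of all genes, and the 5 gained were *Slc1a2*, *Slc38a10*, *Slc6a8*, *Slc7a3* and *Slc7a5*. In bulk tissue, fewer cells of a type and less RNA per cell cannot be told apart. Of 5 neuron markers in cortex 0 rose and 3 fell, with a summed median of 7020 CPM in Ctr and 6635 CPM in SD pools. Of 5 oligodendrocyte markers 1 rose and 2 fell, and of 5 microglia markers 2 rose and 2 fell. The part of these cells in the members' changes was not tested.

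The Slc6 family moved mostly downward in cortex, with 8 of 11 members lower, 1 higher and 2 not past the test, and a median log2 fold change of -0.21 against -0.01 for all genes. Those that fell included carriers of GABA, taurine, glycine, proline and branched-chain amino acids. *Slc6a15*, which carries branched-chain amino acids and proline into neurons, ranged over 5.74, 6.05 and 6.21 log2 CPM (lowest, median and highest Ctr pool) and over 5.22, 5.67 and 5.88 in SD pools. The groups overlapped only at their edges, and the level was lower after SD in 39 of 39 paired pools. Its log2 fold change was -0.39 ± 0.028 (SE, here and for later fold changes; adjusted p = 1.70e-22), a 1.31-fold decrease. *Slc6a6*, the taurine transporter, went from 7.69, 7.94 and 8.10 in Ctr to 7.44, 7.57 and 7.84 in SD pools. It too was lower in all 39 pairs, with a log2 fold change of -0.33 ± 0.022 (adjusted p = 1.47e-23). *Slc6a20a*, a proline carrier, lay at 3.16, 3.47 and 3.90 in Ctr and at 2.75, 3.10 and 3.57 in SD pools. It was lower in 37 of 39 pairs, with broadly overlapping groups and a log2 fold change of -0.38 ± 0.044 (adjusted p = 1.77e-12). None of the 4 choroid plexus markers listed passed the test, but their summed level spanned 8.13 to 239 CPM in Ctr and 7.19 to 411 CPM in SD pools, and the part of that tissue in the result was not tested.

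The smaller decreases in Slc6 included those of *Slc6a9*, the glycine transporter GlyT1, at a log2 fold change of -0.26, and of *Slc6a7*, the brain proline transporter, at -0.23 and lower in all 39 pairs. *Slc6a13* changed by -0.18 and *Slc6a11*, the astrocyte GABA transporter, by -0.077. The call of *Slc6a11* was lost without BXD79, BXD85 and BXD101, at an adjusted p of 0.0551 (limma), and in the 33 BXD/RwwJ lines alone, at 0.0514. The vesicular carrier *Slc6a17* rose, by 0.10. Not past the test were *Slc6a8*, the creatine transporter, at 0.055 (adjusted p = 0.0539, and 0.00730 with the line as a block), and *Slc6a12* at -0.21.

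Slc38 was split in cortex, with 4 of 10 members higher and 4 lower. The system A carrier *Slc38a2*, which moves alanine, glutamine and serine with sodium, rose in 39 of 39 pairs. Its Ctr pools spanned 7.30, 7.54 and 7.71 log2 CPM and its SD pools 7.56, 7.87 and 8.17. The median SD pool thus lay above the highest Ctr pool, with a log2 fold change of 0.35 ± 0.027 (adjusted p = 6.60e-20), or 1.27-fold. Its neighbor *Slc38a1*, also of system A, rose by 0.15. The third gene of that stretch, *Slc38a4*, fell by 0.43 on the log2 scale from a low level, from -0.40, 0.37 and 1.12 in Ctr to -0.89, -0.071 and 0.97 in SD pools (SE 0.089, adjusted p = 1.52e-05). It was lower in 29 of 39 pairs, and its lowest pool held 10 reads.

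The largest change of any member in cortex was the fall of *Slc38a5*, a system N carrier of glutamine. Ctr pools ranged over 0.55, 1.66 and 2.35 log2 CPM and SD pools over -0.49, 0.95 and 2.00. The ranges overlapped over most of their width, yet the level was lower in 37 of 39 pairs. The log2 fold change was -0.70 ± 0.12 (adjusted p = 1.95e-07), a 1.63-fold decrease, and single pairs ranged from -1.84 to 0.21. Of 5 brain endothelial markers 2 rose and 2 fell, and their summed level spanned 181 to 304 CPM in Ctr pools and 176 to 244 CPM in SD pools, with no marker at 0 reads in any pool. The part of these cells in the result was not tested. *Slc38a3*, the other system N carrier, fell less (-0.14), and *Slc38a7* changed by -0.063. Small increases passed the test for *Slc38a6* (0.13) and for the arginine sensor of the lysosome *Slc38a9* (0.052), the latter lost in 4 alternatives, with an adjusted p of up to 0.262 (limma). *Slc38a10* (0.053) and *Slc38a11* (-0.038) did not pass, although *Slc38a10* did with the block (adjusted p = 0.00218).

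*Slc36a1*, the proton-coupled carrier PAT1 of the lysosome, showed the largest rise of the members in cortex. Its Ctr pools spanned 5.94, 6.20 and 6.77 log2 CPM and its SD pools 6.37, 6.71 and 7.27. Although the ranges overlapped, the level rose in 39 of 39 pairs, by 0.16 to 0.64. The log2 fold change was 0.47 ± 0.059 (adjusted p = 5.44e-11), or 1.38-fold. *Slc36a4* fell by 0.13 on the log2 scale, and the neighboring *Slc36a2*, with a pool at 0 reads, was at -0.18 ± 0.18 and did not pass.

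Of the glutamate transporters in cortex, the neuronal *Slc1a1* rose in 39 of 39 pairs, by 0.25 ± 0.016 (adjusted p = 2.53e-24), from a Ctr median of 7.06 to an SD median of 7.31 log2 CPM. The astrocyte transporter *Slc1a3* rose by 0.052, a call that did not hold under quantile normalization (adjusted p = 0.301) or in the 33 BXD/RwwJ lines alone (adjusted p = 0.0780, limma), and *Slc1a2* was at 0.072 (adjusted p = 0.0920, and 0.00577 with the line as a block). Of 5 astrocyte markers, 1 rose and 1 fell. *Slc1a6*, known best from Purkinje cells, fell, with a log2 fold change of -0.13. The neutral exchanger *Slc1a5* (ASCT2) rose by 0.22 from a low level, and its relative *Slc1a4* (ASCT1) stood at 0.011 ± 0.029 and did not pass the test.

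The heteromeric exchangers of cortex held 1 heavy chain and 6 light chains. The heavy chain *Slc3a2* (CD98) rose by 0.084, a call that quantile normalization removed (adjusted p = 0.0677, limma). Of the light chains, *Slc7a11* (the cystine/glutamate exchanger xCT), *Slc7a8* (LAT2) and *Slc7a6* fell, with log2 fold changes of -0.28, -0.25 and -0.088, and *Slc7a8* was lower in 39 of 39 pairs. *Slc7a5* (LAT1, the main carrier of large neutral amino acids into the brain) was at 0.059 (adjusted p = 0.114, and 0.000923 with the block), while *Slc7a7* and *Slc7a10* also did not pass. Among the cationic carriers, *Slc7a14* and *Slc7a4* rose by 0.10 and 0.087, and *Slc7a1*, *Slc7a2* and *Slc7a3* did not pass, although *Slc7a3* did with the block (adjusted p = 0.0225). *Slc43a2*, a facilitator of branched-chain amino acids, rose by 0.13.

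**Figure D2:**
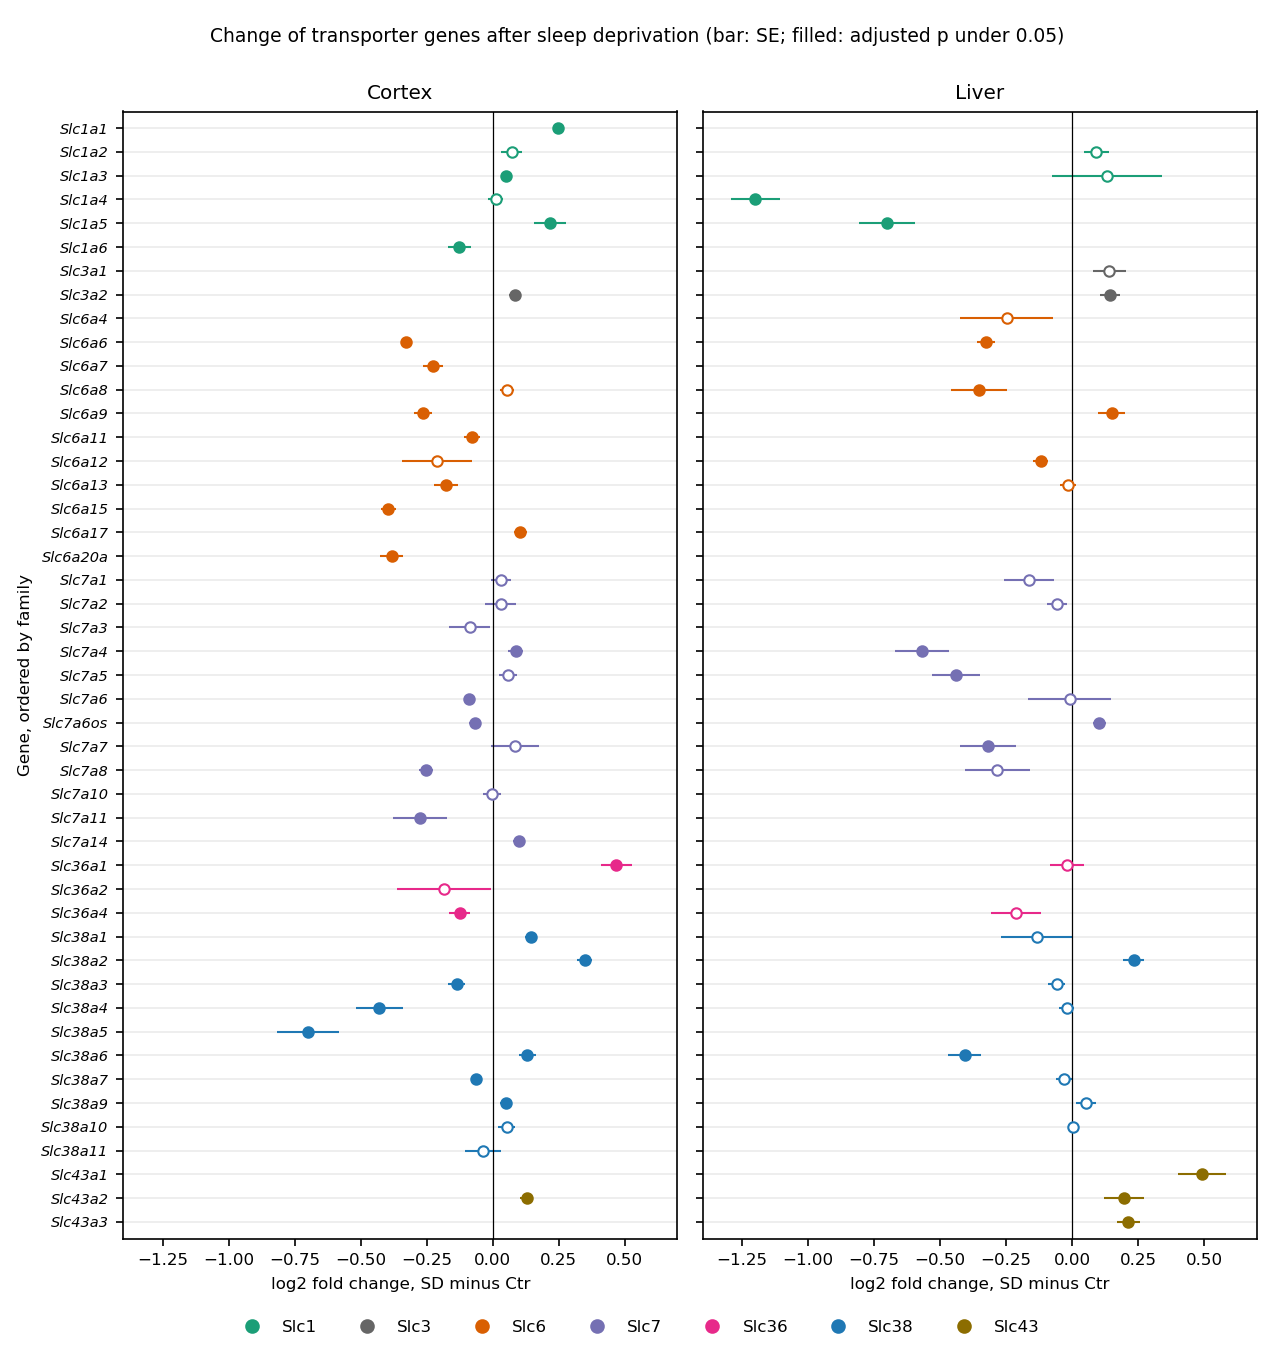
Log2 fold change of members, SD minus Ctr, in cortex (left) and liver (right), with the SE as a bar, the family as the color and a filled point where the adjusted p was under 0.05. In cortex *Slc38a5* at -0.70 and in liver *Slc1a4* at -1.20 lie farthest from 0.

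In liver, 16 of the 33 members passed the test, 7 higher and 9 lower, over 14107 genes. This was 48.5% of the members beside 44.2% of all genes, with 21.5% of all genes higher and 22.6% lower, again near the background. The median absolute log2 fold change was 0.15 for the members and 0.12 for all genes, and 9 members moved by at least 0.3, 8 of them downward. No member had Ctr and SD pools that did not overlap (0.121% of all genes did), and 2 members moved the same way in all 39 pairs, beside 2.40% of all genes. With the line as a block, 21 members passed (9 higher, 12 lower) beside 53.9% of all genes, and those gained were *Slc1a2*, *Slc36a4*, *Slc38a3*, *Slc3a1* and *Slc7a8*. All 5 B cell markers measured in liver fell after SD, with a median log2 fold change of -1.44, and their summed level spanned 7.74 to 33.5 CPM in Ctr pools (median 14.8) and 3.11 to 16.2 CPM in SD pools (median 6.31). Of these markers, 3 were at 0 reads in at least 1 pool. None of the 5 hepatocyte markers and none of the 4 Kupffer cell markers listed passed the test. Of 5 liver endothelial markers 3 rose and 1 fell, with a summed median of 366 CPM in Ctr and 371 CPM in SD pools. Of 5 cholangiocyte markers 1 fell and the others did not pass. The part of B cells and of these other cells in the members' changes was not tested.

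Both neutral exchangers of Slc1 fell in liver, by more than any other member. *Slc1a4*, which exchanges serine, alanine, cysteine and threonine, spanned 4.02, 5.02 and 5.73 log2 CPM in Ctr pools and 2.89, 3.78 and 4.73 in SD pools. It fell in 39 of 39 pairs, by 0.33 at the least and by 2.33 at the most, and the median SD pool lay below the lowest Ctr pool. The log2 fold change was -1.20 ± 0.093 (adjusted p = 2.51e-19), a 2.30-fold decrease. *Slc1a5*, the glutamine exchanger, went from 1.81, 2.65 and 4.00 to 0.80, 2.02 and 3.12, with wide overlap and a lower level in 37 of 39 pairs. Its log2 fold change was -0.70 ± 0.11 (adjusted p = 4.67e-08). The 2 glutamate transporters listed in liver did not pass the test, with *Slc1a2* at 0.091 (adjusted p = 0.112, and 0.00157 with the block) and *Slc1a3* close to the detection limit.

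Within Slc7, 3 of 8 liver members fell and 1 rose, the latter being *Slc7a6os* (0.10). *Slc7a4*, an orphan member of the cationic branch, ranged over 2.41, 3.41 and 4.39 in Ctr and 1.66, 2.83 and 3.89 in SD pools. It was lower in 37 of 39 pairs, at a log2 fold change of -0.57 ± 0.10 (adjusted p = 2.70e-06). For *Slc7a5* (LAT1) the pools lay at 2.85, 3.77 and 4.49 in Ctr and at 2.27, 3.31 and 4.14 in SD. The groups overlapped, with 36 of 39 pairs lower and a log2 fold change of -0.44 ± 0.089 (adjusted p = 2.52e-05). *Slc7a7*, the light chain that exports cationic amino acids, spanned 3.07, 4.13 and 4.95 in Ctr and 2.62, 3.82 and 4.66 in SD pools. It was lower in 31 of 39 pairs (-0.32 ± 0.11, adjusted p = 0.0107). *Slc7a8* stood at -0.28 ± 0.12 and passed only with the block (adjusted p = 0.00467, against 0.0526 without). The abundant arginine carrier *Slc7a2* did not pass (-0.059 ± 0.038), nor did *Slc7a1* (-0.16 ± 0.094) and *Slc7a6* (-0.00971 ± 0.16), the latter with a pool at 0 reads. The heavy chain *Slc3a2* rose, by 0.14 ± 0.037 (adjusted p = 0.00108), and *Slc3a1* was at 0.14 (adjusted p = 0.0658, and 5.80e-05 with the block).

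All 3 Slc43 facilitators rose in liver. *Slc43a1* (LAT3), which lets branched-chain amino acids and phenylalanine out of or into cells, spanned 4.42, 5.63 and 6.29 in Ctr and 5.19, 6.07 and 6.86 in SD pools. The level was higher in 37 of 39 pairs, by 0.49 ± 0.091 on the log2 scale (adjusted p = 4.49e-06), or 1.41-fold. Its neighbor *Slc43a3*, known as a carrier of purine bases, rose by 0.21 ± 0.043 in 35 of 39 pairs. *Slc43a2* rose by 0.20 ± 0.077, a call that did not hold in the 33 BXD/RwwJ lines alone (adjusted p = 0.0746, limma).

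In Slc38, *Slc38a2* rose and *Slc38a6* fell, and the other 6 liver members did not pass the test. *Slc38a2* was higher in 34 of 39 pairs, by 0.23 ± 0.040 (adjusted p = 1.21e-06). *Slc38a6*, an orphan of the family, went from 3.64, 4.27 and 4.60 in Ctr to 2.70, 3.91 and 4.46 in SD pools. It was lower in 36 of 39 pairs, with a log2 fold change of -0.41 ± 0.062 (adjusted p = 4.38e-08). The 2 most abundant carriers, *Slc38a3* and *Slc38a4*, were at -0.058 ± 0.032 and -0.022 ± 0.030, and only the former passed with the block (adjusted p = 0.0235).

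The Slc6 members of liver were 3 lower and 1 higher of 6. The taurine transporter *Slc6a6* fell in 39 of 39 pairs, from 8.10, 8.34 and 8.54 in Ctr to 7.26, 8.02 and 8.29 in SD pools. The lowest of these SD pools was that of BXD70, and the log2 fold change over all pools was -0.33 ± 0.034 (adjusted p = 1.33e-13). *Slc6a8*, the creatine transporter, lay at 2.99, 4.32 and 5.09 in Ctr and 2.14, 3.92 and 4.79 in SD pools, with wide overlap. It was lower in 33 of 39 pairs, at a log2 fold change of -0.35 ± 0.11 (adjusted p = 0.00404). *Slc6a12*, the betaine carrier, changed by -0.12, while *Slc6a9*, the glycine transporter, rose by 0.15. *Slc6a13* and the serotonin transporter *Slc6a4* did not pass, and neither did *Slc36a1* and *Slc36a4*, although the latter did with the block (adjusted p = 0.0462).

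**Figure D3:**
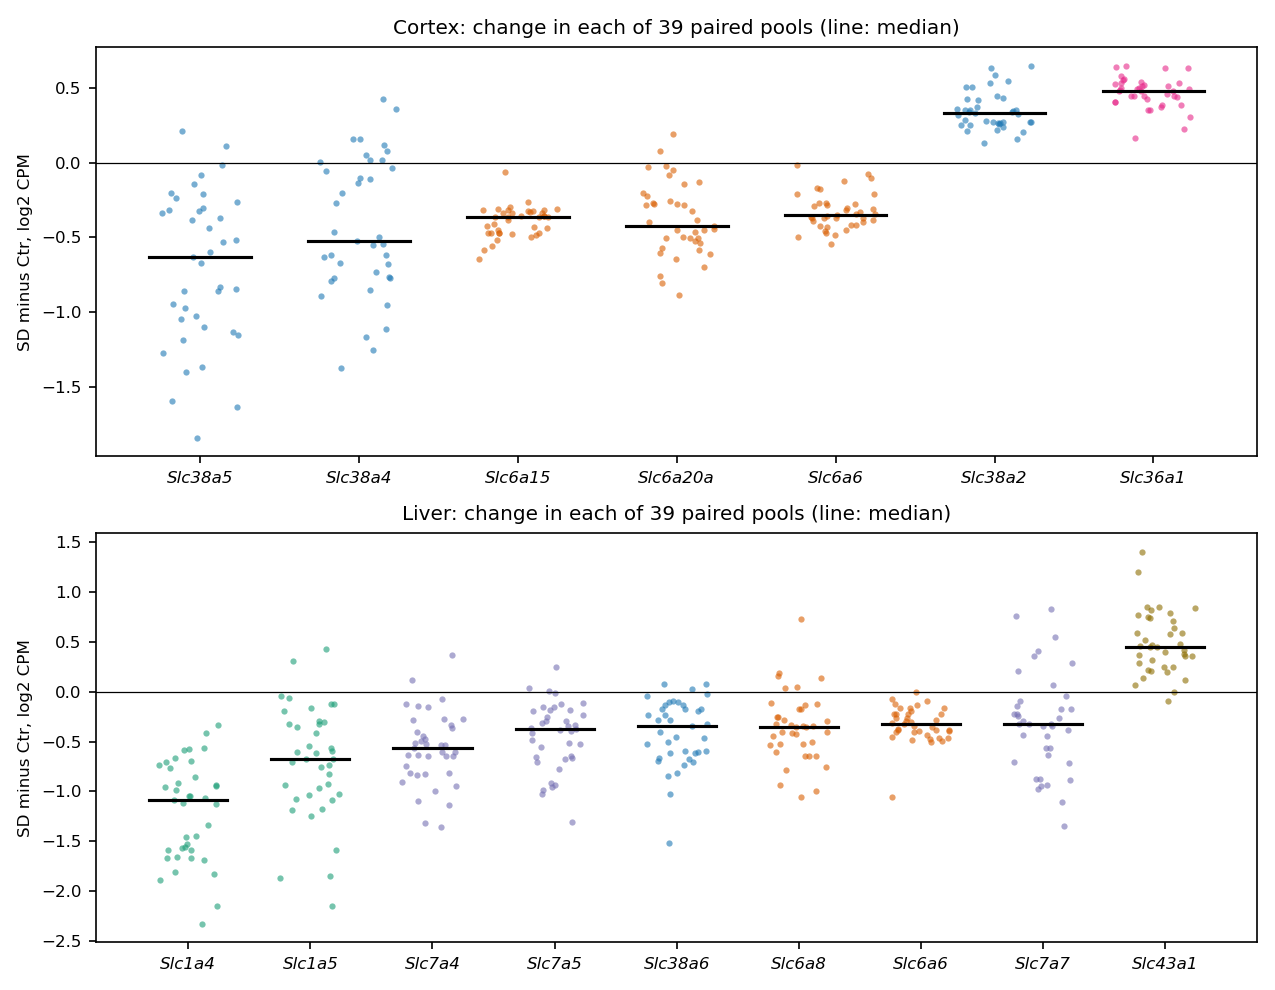
Change in each of the 39 paired pools, SD minus Ctr in log2 CPM, for the members past the test that moved by 0.3 or more, in cortex (top) and liver (bottom), with the median as a line and the family as the color. All 39 points lie on one side of 0 for *Slc6a15*, *Slc6a6*, *Slc38a2* and *Slc36a1* in cortex and for *Slc1a4* and *Slc6a6* in liver.

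Whether the response differs between tissues was tested line by line, by taking the cortex change from the liver change. Of the 29 members listed in both tissues 18 differed, 5 with a higher and 13 with a lower change in liver. This 62.1% of the members stands beside 57.6% of the 12695 genes tested, of which 28.0% were higher and 29.6% lower in liver. Past the test in both tissues were 9 members. *Slc38a2*, *Slc3a2* and *Slc43a2* rose in both and *Slc6a6* fell in both. The log2 fold change of the taurine transporter was -0.33 in cortex and -0.33 in liver, with a difference of 0.00110 ± 0.030 (adjusted p = 0.978). The rise of *Slc38a2* was larger in cortex, by 0.12 ± 0.030 (adjusted p = 0.00104), with a larger change in cortex in 28 of 39 pairs.

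Opposite directions, each past the test, were measured for 5 members. *Slc1a5* rose in cortex (0.22) and fell in liver (-0.70), as did *Slc38a6* (0.13 and -0.41) and *Slc7a4* (0.087 and -0.57). The cortex call of *Slc7a4* did not hold under quantile normalization (adjusted p = 0.143) or in the 33 BXD/RwwJ lines alone (adjusted p = 0.0728, limma). *Slc6a9* fell in cortex (-0.26) and rose in liver (0.15), with a higher change in liver in 36 of 39 pairs. *Slc7a6os* showed the same pattern at small sizes (-0.068 and 0.10). The widest gap was that of *Slc1a4*, whose liver change lay below its cortex change in 39 of 39 pairs, with a difference of -1.21 ± 0.073 (adjusted p = 3.42e-18). The change of *Slc36a1* was also lower in liver than in cortex in 39 of 39 pairs (-0.49 ± 0.042, adjusted p = 2.33e-13).

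**Figure D4:**
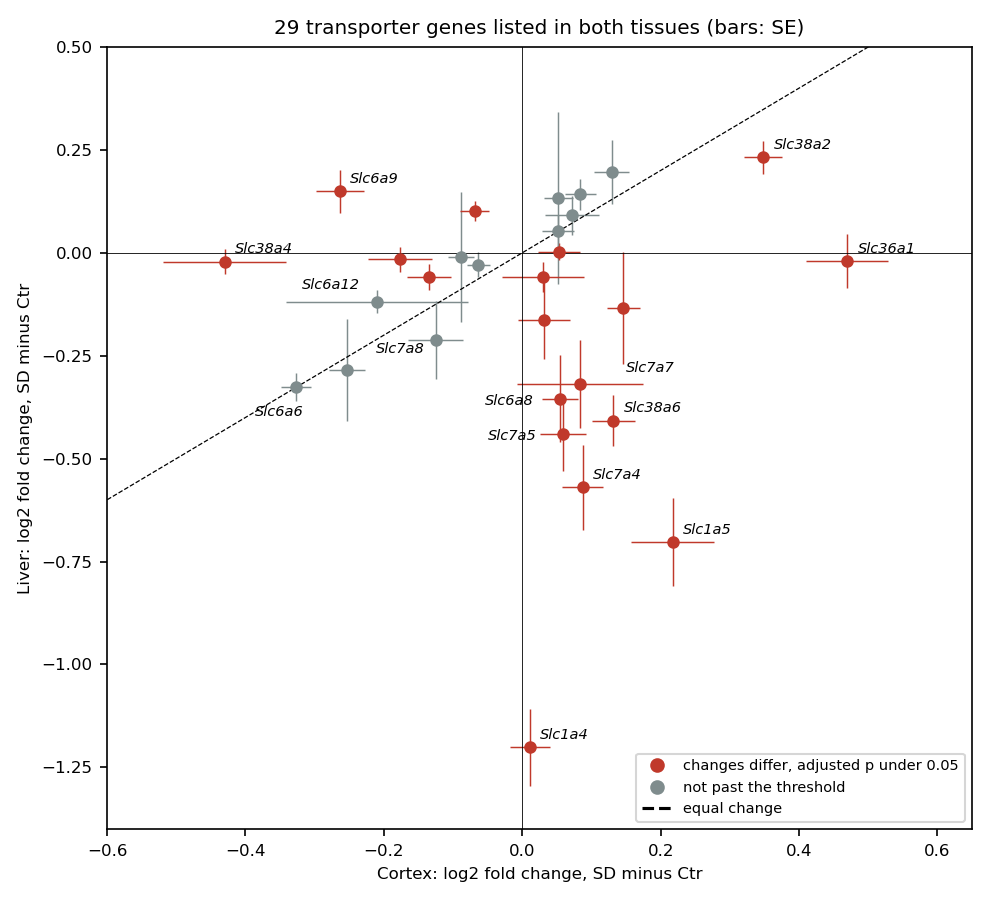
Log2 fold change (SD minus Ctr) of the 29 members listed in both tissues, cortex on the x axis and liver on the y axis, with SE bars, a dashed line of equal change, and red points where the paired test of the difference had an adjusted p under 0.05. *Slc6a6* lies on the dashed line at -0.33 in both tissues, whereas *Slc1a4* lies at 0.011 in cortex and -1.20 in liver.

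The parental strains were compared over 8 libraries a tissue, with 2 Ctr and 2 SD pools of each strain that were collected at the start and at the end of the study. In cortex 15 of 44 members differed, 5 higher and 10 lower in D2, beside 25.5% of all genes (11.6% higher, 13.9% lower). The widest difference was that of *Slc7a11*, the cystine/glutamate exchanger. Its B6 pools stood at 5.76 and 6.05 (Ctr) and 5.77 and 5.68 log2 CPM (SD), and its D2 pools at 4.99 and 5.08 (Ctr) and 4.69 and 4.70 (SD). The strains did not overlap, and D2 minus B6 was -0.95 ± 0.063 (adjusted p = 2.79e-08). *Slc38a5* was lower in D2 by 0.94 ± 0.23 over both conditions, but unevenly so. Its Ctr pools stood at 1.74 and 1.86 in B6 and 1.42 and 1.68 in D2, and its SD pools at 1.72 and 1.43 in B6 and 0.053 and -0.16 in D2, so the gap lay mostly in the SD pools, a difference between conditions that was not tested. *Slc38a11* was lower in D2 by 0.79 ± 0.18, *Slc7a3*, a cationic carrier of neurons, by 0.66 ± 0.11 and *Slc36a1* by 0.36 ± 0.044 (adjusted p = 2.10e-05). The call of *Slc38a11* was lost without the second D2 pool (adjusted p = 0.0515, limma).

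In liver 12 of 33 members differed between the parents, 7 higher and 5 lower in D2, beside 17.9% of all genes (8.42% higher, 9.47% lower). With each library centered on its median, 10 members differed, 7 higher and 3 lower. *Slc7a4* showed the widest difference. Its B6 pools stood at 2.41 and 2.46 (Ctr) and 1.66 and 2.31 (SD), and its D2 pools at 4.25 and 4.28 (Ctr) and 3.44 and 2.96 (SD). No B6 pool reached the lowest D2 pool, and D2 minus B6 was 1.52 ± 0.22 (adjusted p = 0.000236), or 2.87-fold. *Slc6a8* was lower in D2 by 0.90 ± 0.14, and *Slc43a1*, *Slc1a4* and *Slc36a1* were higher, by 0.79 ± 0.077, 0.77 ± 0.15 and 0.75 ± 0.075. The call of *Slc1a4* was lost without the first D2 pool (adjusted p = 0.0702, limma). Across the members, 2 carried opposite signs in the tissues, each past the test. *Slc36a1* was lower in D2 cortex and higher in D2 liver, and *Slc3a2* was at -0.22 in cortex and 0.46 in liver. This contrast between tissues was not itself tested.

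Over all 37 strains, with SD taken into account, 38 of 44 members differed between strains in cortex, beside 55.5% of all genes, and 27 of 33 in liver, beside 62.1% of all genes (F test in limma, adjusted p under 0.05). The strongest in cortex was *Slc36a1* (F = 28.8), followed by *Slc7a11* (F = 24.7) and *Slc7a2* (F = 15.7), and in liver *Slc3a1* (F = 9.86). In Ctr cortex the 33 BXD lines spanned 5.94 to 6.77 log2 CPM for *Slc36a1*, with 21 lines at or below 6.23 and 12 at or above 6.49. The F1 pools lay between these sets, at 6.46 and 6.37, with B6 at 6.66 and 6.65 and D2 at 6.28 and 6.20. In SD cortex both F1 pools, each at 6.93, lay with the upper set. For *Slc7a11* the lines spanned 4.87 to 6.49, with 7 above both parents and 1 below. The members with no call between strains in cortex were *Slc1a5*, *Slc6a6*, *Slc6a17*, *Slc6a20a*, *Slc7a4* and *Slc7a6os*.

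**Figure D5:**
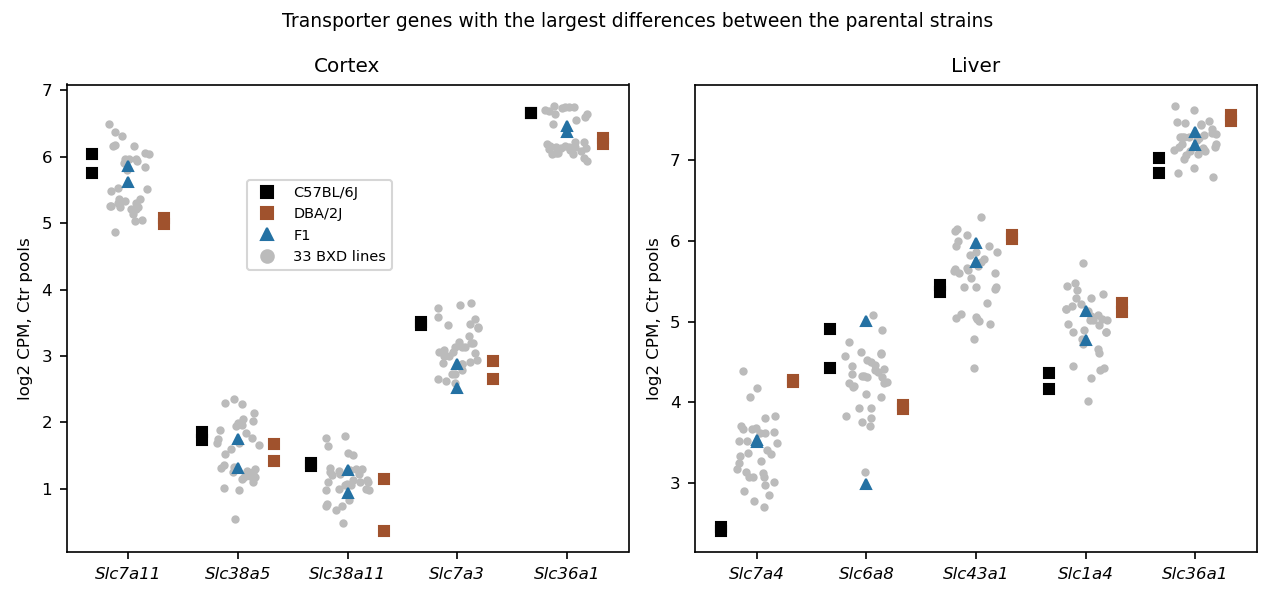
Level in Ctr pools, in log2 CPM, of the 5 members with the widest D2 minus B6 difference past the test in cortex (left) and liver (right), with black squares for B6, brown squares for D2, blue triangles for the F1 pools and gray points for the 33 BXD lines. *Slc7a11* in cortex lies at 5.76 and 6.05 in B6 and at 4.99 and 5.08 in D2, and the BXD lines spread over both.

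Other genes of amino acid handling were taken as whole lists, which were chosen with earlier results of these data known. The share past the test is given for each list, beside 68.4% of all genes in cortex and 44.2% in liver. Of 32 genes that sense amino acids for mTORC1, 7 rose and 12 fell in cortex (59.4%). In liver 4 rose and 8 fell of the 31 listed (38.7%). The one of these past the test with a change of at least 0.5 was *Gatsl3*, which encodes the arginine sensor CASTOR1, at 0.50 ± 0.075 in cortex (adjusted p = 9.17e-09). Of 14 genes of glutamate, glutamine and GABA metabolism 5 rose and 1 fell in cortex (42.9%). In liver 1 rose and 2 fell of 9 (33.3%), and in both tissues all moved by less than 0.5. Mitochondrial amino acid carriers counted 2 higher and 2 lower of 8 in cortex (50%) and 4 higher and 1 lower of 7 in liver (71.4%). Among them *Slc25a29*, which carries basic amino acids into mitochondria, rose in liver by 0.66 ± 0.085 (adjusted p = 4.26e-10). Of 9 amino acid, peptide and carnitine carriers of other families 4 rose and 4 fell in cortex (88.9%), and 4 rose and 3 fell in liver (77.8%). There *Slc22a5*, the carnitine transporter OCTN2, rose in 39 of 39 pairs by 0.51 ± 0.054 (adjusted p = 3.65e-13), and its relative *Slc22a4*, the ergothioneine transporter, changed by -0.52 ± 0.070 (adjusted p = 1.64e-09).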

How the data were processed

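Poly(A) RNA of cortex and liver pools was sequenced with a strand-specific kit as single reads of 100 bases. The authors aligned reads to mm9 with STAR, counted them per RefSeq gene with htseq-count on the stated strand, removed genes with a mean count under 10, scaled by TMM in edgeR and deposited log2 CPM values, 1 table per tissue and condition. These log2 CPM values were used as deposited. Whole reads could be recovered for 100% of values within 0.02 read, which gave the depth per library and an alternative test. All sample columns were mapped to labels (0 left out). Of 172 libraries 156 were analysed, and the 16 of 4 BXD/TyJ lines entered 1 alternative only.

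SD and Ctr pools (39 each) were compared per tissue with limma 3.58.1 (R 4.3.3, trended eBayes, no block), adjusted by Benjamini-Hochberg over all genes listed. The difference between tissues was tested on paired changes, and parents and strains with condition as a term. P-values over pools rest on the spread between pools, in which differences of strain, mice and library are mixed. Deviations of SD and Ctr pools of a line correlated at 0.169 or more in all 39 pairs per tissue. Medians were 0.614 in cortex and 0.475 in liver, against -0.0197 and -0.0180 for other lines. Pools of a line were therefore paired in the counts over pairs, in the difference between tissues and in the alternatives with a block. The main SD test left this pairing out. Members past the test that moved by 0.3 or more on the log2 scale (at most 15 a tissue) were described in full, with the leading member of each family, members of opposite direction, the 5 widest parental differences and listed companion genes of at least 0.5. Members and lists were chosen with earlier results of these data known. Exonic length and mm9 positions came from GENCODE M1, and promoters from RefSeq on GRCm38.p6. Scripts were tested on simulated data. Single values of some genes that enter the counts are not reported here.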

Additional observations from a re-analysis of the deposited data

Results flagged for a closer look

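For 18 members the change under SD differed between liver and cortex by the paired test over 39 pairs of pools (limma, adjusted over 12695 genes). Values are liver minus cortex on the log2 scale with the SE. *Slc1a4* stood at -1.21 ± 0.073, and *Slc1a5* at -0.92 ± 0.10 with a lower change in liver in 37 of 39 pairs. *Slc7a4* stood at -0.66 ± 0.067 (lower in 35 of 39 pairs), *Slc38a6* at -0.54 ± 0.061 (36 of 39) and *Slc7a5* at -0.50 ± 0.053 (38 of 39). *Slc36a1* was at -0.49 ± 0.042, *Slc6a8* at -0.41 ± 0.055 (34 of 39) and *Slc7a7* at -0.40 ± 0.11 (27 of 39, adjusted p = 0.00135). A higher change in liver was measured for *Slc6a9* at 0.41 ± 0.039, *Slc38a4* at 0.41 ± 0.073 (32 of 39 pairs) and *Slc7a6os* at 0.17 ± 0.030 (34 of 39). Smaller differences past the test were -0.28 ± 0.098 for *Slc38a1*, -0.19 ± 0.071 for *Slc7a1*, -0.12 ± 0.030 for *Slc38a2*, -0.089 ± 0.034 for *Slc7a2* and -0.051 ± 0.021 for *Slc38a10*, and in the other direction 0.16 ± 0.035 for *Slc6a13* and 0.077 ± 0.031 for *Slc38a3*. Of these 7, the calls of *Slc38a1*, *Slc38a10*, *Slc38a3*, *Slc7a1* and *Slc7a2* were lost under at least 1 alternative. Cortex and liver RNA of a line was extracted by different methods, by robot and by hand, so the method and the tissue cannot be told apart in levels.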

How the results depend on the processing

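Across 823 repeats of the members' calls under the alternatives none changed sign, 771 stayed past the threshold and 52 did not. With the line as a block for these paired pools, 36 members passed in cortex and 21 in liver. With the pool number of the parents as a block, 19 differed in cortex and 11 in liver, where *Slc38a7* was lost (adjusted p = 0.0511, limma). Counts of members past the test ran from 27 (quantile normalization, and the 33 BXD/RwwJ lines alone) to 37 (voom with the block) in cortex and from 15 to 21 in liver, and from 13 (no pairing of pools) to 18 for the difference between tissues. Leaving out each parental pool in turn gave 12 to 21 members in cortex and 8 to 9 in liver. The alternatives without BXD70, and without BXD56, BXD85 and BXD90, were chosen after seeing the data. Calls were kept under every alternative for 25 of 31 members in cortex, 15 of 16 in liver, 13 of 18 between tissues, and 10 of 15 and 6 of 12 between parents in cortex and liver, and the cause of the losses was not tested. Depth limits *Slc36a2* in cortex and *Slc1a3*, *Slc6a4* and *Slc7a6* in liver, each with a pool at 0 reads. Other liver members were low too. The lowest SD pool of *Slc38a1*, *Slc7a1* and *Slc1a5* stood at -0.0028, 0.28 and 0.80 log2 CPM.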

Other observations

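The reciprocal F1 pools of control liver lay apart for several members. *Slc7a8* stood at 4.70 log2 CPM in the cross labelled C57/BL/J x DBA/2J and at 2.63 in that labelled DBA/2J x C57/BL/J, and *Slc6a8* at 5.01 and 2.99. The second of these libraries held 5034166 reads and 304 listed genes without a read, against 6862922 reads and 79 such genes in the first, and its read count was the lowest of the 39 Ctr liver pools. The gaps did not recur in the SD liver pools of the same crosses. There *Slc7a8* stood at 2.60 and 3.33, in the reverse direction, and *Slc6a8* at 4.07 and 3.72. With 1 pool of each cross in each condition these differences were not tested, nor was the part of the library in them. The genes named here were singled out after their values were seen. *Slc36a1* in cortex split the 33 BXD lines into the same numbers in both conditions, 21 below and 12 above a gap that ran from 6.23 to 6.49 log2 CPM in Ctr and from 6.73 to 6.90 in SD pools. The F1 pools lay inside the gap in Ctr and above it in SD cortex. For *Slc7a11* the widest gap in Ctr cortex ran from 5.53 to 5.81, with 18 lines below and 15 above. In liver, BXD70, whose SD library held the fewest reads, had the lowest change of 11 of the 33 members, down to -3.16 for *Slc36a4*.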
